A study of Mus musculus with 7 samples.

Results

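The genes described here are 35 genes of the endoplasmic reticulum (ER) that fold secreted proteins, dispose of misfolded ones, or sense and signal ER stress in the unfolded protein response. They were taken by name from a list, after the Ensembl IDs of the count files had been joined to mouse gene symbols. The rule uses no measured value, but the list was drawn up with earlier results of these data known. All 35 were found among the 25700 gene IDs, and all 35 passed the filter on low counts, which left 14791 genes to test. By role, 8 are chaperones and co-chaperones of the ER lumen, 7 are lectin chaperones, disulfide isomerases or related proteins, 8 are stress sensors and transcription factors, 8 act in ER-associated degradation, 3 are stress effectors, and 1, Sec61b, belongs to the channel through which new proteins enter the ER.

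Secreted proteins enter the ER as unfolded chains. Chaperones such as BiP (the product of Hspa5) hold them while disulfide isomerases form their disulfide bonds, and calnexin and calreticulin bind their sugar chains. When unfolded chains pile up, the sensors IRE1 (Ern1), PERK (Eif2ak3) and ATF6 (Atf6) raise the transcription of chaperone and degradation genes and lower protein synthesis. Ameloblasts, the enamel-forming cells of the tooth epithelium, secrete large amounts of amelogenin, the product of Amelx, and depend on this machinery. Nogo-A, encoded by Rtn4, is itself a membrane protein of the reticulon family, which shapes the tubules of the ER.

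RNA of the dental epithelium of lower incisors was sequenced from 7 newborn mouse pups (PN0), 4 of the genotype K14cre cre/+; Nogo-A fl/fl, called K14;Nogo-A, and 3 wild-type controls. Each library came from 1 pup, with the left and right incisors pooled. The study had 1 more wild-type pup, not analysed here. K14-Cre acts in epithelial cells and removes the Nogo-A form of Rtn4, while other forms and other cells of the piece keep the gene. The controls are labelled wild-type, so the floxed alleles and the Cre transgene cannot be told apart from the deletion. The question was which genes the loss of Nogo-A in the dental epithelium changes.

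The libraries held 20929207 to 41219439 counts on genes. Rtn4, counted over all its forms, averaged 327 ± 21.3 CPM in K14;Nogo-A (counts relative to the library size scaled by TMM; SD, n = 4) and 301 ± 39.1 CPM in wild-type (SD, n = 3), a count that does not check the deletion. The epithelial genes Krt14 and Epcam were found in every library, at 1468 CPM or more and 153 CPM or more, but Col1a1, a collagen gene of mesenchymal cells, also took 0.603% to 2.38% of the counts in K14;Nogo-A pups, against 1.66% to 2.86% in wild-type. Amelx took 2.76%, 7.08%, 6.99% and 5.81% of the counts in K14;Nogo-A replicates 1, 2, 7 and 10, against 2.57%, 1.11% and 3.36% in wild-type replicates 3, 8 and 9. The 3 highest Amelx shares were thus all in K14;Nogo-A, while K14;Nogo-A replicate 1 lay within the range of wild-type. Genes of the Y chromosome (Ddx3y, Eif2s3y, Kdm5d, Uty) were high in K14;Nogo-A replicate 1 and in wild-type replicates 3 and 8 and close to 0 in the other 4 libraries. The 3 libraries with high levels of these genes also had the 3 lowest Amelx shares, so Amelx share and Y-linked expression are partly confounded. Below, values in the libraries always follow this order of replicates.

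Many genes of this kind carry the ER stress response element in their promoters, a pair of short boxes to which the factors NF-Y and ATF6 bind. The promoters of 30 of the 35 genes (31 promoters) were found in RefSeq (GRCm38.p6), from 250 bases before to 50 after the gene start. The element, a CCAAT box and a CCACG box with 9 bases of any kind between them, searched on both strands, was in 9 of the 31, which is 29%, against 39 of all 32851 promoters (0.119%). The boxes, given in capitals, are the same in each site by the rule of the search. The sites are shown for the 9 bases between the boxes, which differ from site to site. Each is written from the CCAAT box to the CCACG box.
Hspa5, chr2:34772025-34772043, plus strand: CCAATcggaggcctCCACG
Hsp90b1, first site, chr10:86705638-86705656, minus strand: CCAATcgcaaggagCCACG
Hsp90b1, second site, chr10:86705533-86705551, plus strand: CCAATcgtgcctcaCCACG
Dnajc3, chr14:118937827-118937845, plus strand: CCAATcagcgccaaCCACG
Calr, chr8:84847075-84847093, plus strand: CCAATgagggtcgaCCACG
Canx, chr11:50325800-50325818, minus strand: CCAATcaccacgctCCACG
Pdia6, chr12:17266491-17266509, plus strand: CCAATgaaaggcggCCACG
Creld2, chr15:88819520-88819538, minus strand: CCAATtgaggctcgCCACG
Syvn1, chr19:6046532-6046550, plus strand: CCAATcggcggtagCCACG
Derl3, chr10:75893242-75893260, minus strand: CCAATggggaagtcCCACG

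All 10 sites lay upstream of the RefSeq gene start, between 212 and 26 bases before it. Of these, 6 ran in the direction of their gene and 4 against it. The Hspa5 site lies inside the Ensembl gene model given below, which starts earlier than the RefSeq one, at 34771970. Hsp90b1 was the gene with 2 sites. They ran in opposite directions within a stretch of 154 bases at chr10:86705518-86705671, shown on the minus strand, that of the gene, with the boxes in capitals.
Hsp90b1: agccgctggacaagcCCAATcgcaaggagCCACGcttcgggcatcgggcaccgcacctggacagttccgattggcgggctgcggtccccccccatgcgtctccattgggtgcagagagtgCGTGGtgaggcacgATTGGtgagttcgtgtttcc

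A second form of the element, an ATTGG box and a CCACG box with 1 base between them, was found in 2 of the 31 promoters, those of Herpud1 (chr8:94386377-94386387, plus strand) and Dnajb11 (chr16:22857852-22857862, plus strand), and in 12 of all promoters (0.0365%). No promoter of the 31 held TGACGTGG, the core of a site bound by XBP1 and ATF6, which was in 0.676% of all promoters, or TGATGNAAT, a form of the amino acid response element bound by ATF4, which was in 0.965%. Motifs as rare as these last 2 would seldom be met in 31 promoters, so their absence does not set the members apart. The map of motif positions shows where the matches lie. They are matches of letters, and binding was not measured.

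**Figure D1:**
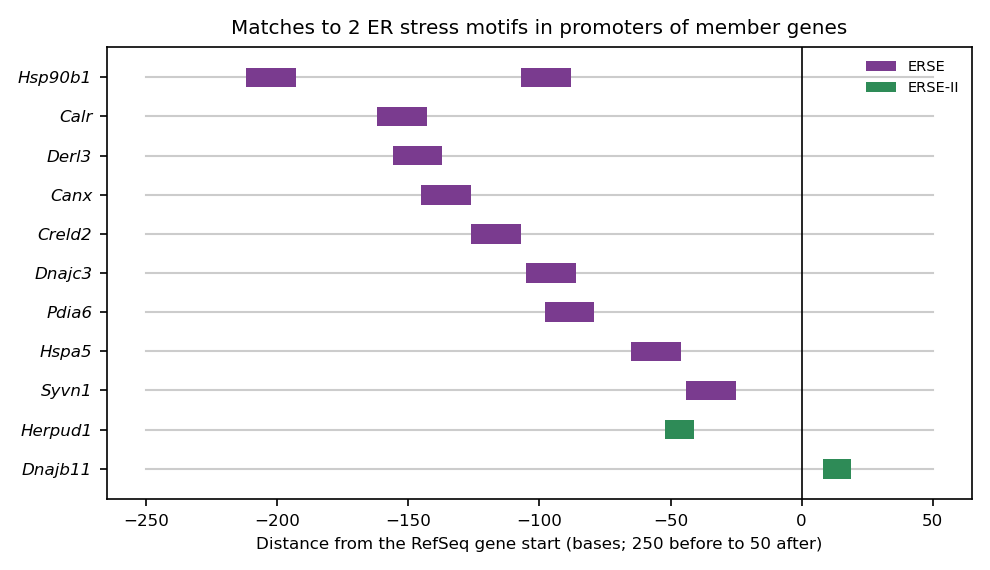
Positions of the 2 motifs found, in bases from the RefSeq gene start (vertical line), 1 row per gene; purple bars are matches to the 19-letter element (ERSE) and green bars matches to its second form (ERSE-II). The 10 ERSE matches lie between 212 and 26 bases before the start, with 2 of them in Hsp90b1.

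Between the genotypes the group as a whole differed little. The 35 genes together took 0.991%, 0.965%, 1.02% and 0.943% of the counts in the K14;Nogo-A libraries, against 1.06%, 1.16% and 1.01% in wild-type, ranges that overlap by little. Their mean log2 CPM was 6.64 to 6.71 in K14;Nogo-A pups, against 6.61 to 6.71 in wild-type. The median log2 fold change of the 35 genes was -0.02, beside -0.01 over all genes tested, with 16 positive and 19 negative values. For 32 of the 35 genes (91.4%) the change was no more than 0.3 in size, against 77.8% of all genes.

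The study called a gene at P of 0.05 or less, unadjusted, together with a change of 0.5 or more on the log2 scale. By these thresholds 1 member was higher in K14;Nogo-A, Ern1, and none was lower. Of all genes tested 2.02% were past these thresholds as higher and 2.74% as lower. With P of 0.05 or less alone, 3 members were higher (Ern1, Dnajb9 and Manf) and 2 lower (Creb3l1 and Hsp90b1), beside 6.25% and 6.66% of all genes, so the members' share was near the background in both directions. With p adjusted over all genes and a limit of 0.05, edgeR called no member in either direction, DESeq2 called Ern1 as higher (adjusted p = 0.030), and limma-voom called none. Over all genes, edgeR called 0 as higher and 5 as lower (0.0338%), DESeq2 called 132 as higher (0.892%) and 156 as lower (1.05%), and limma-voom called 0 as higher and 4 as lower (0.027%). The 4 K14;Nogo-A libraries were all above the 3 wild-type libraries in 1 member, Ern1, and all below them in 1, Pdia4, beside 5.43% and 6.09% of all genes.

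**Figure D2:**
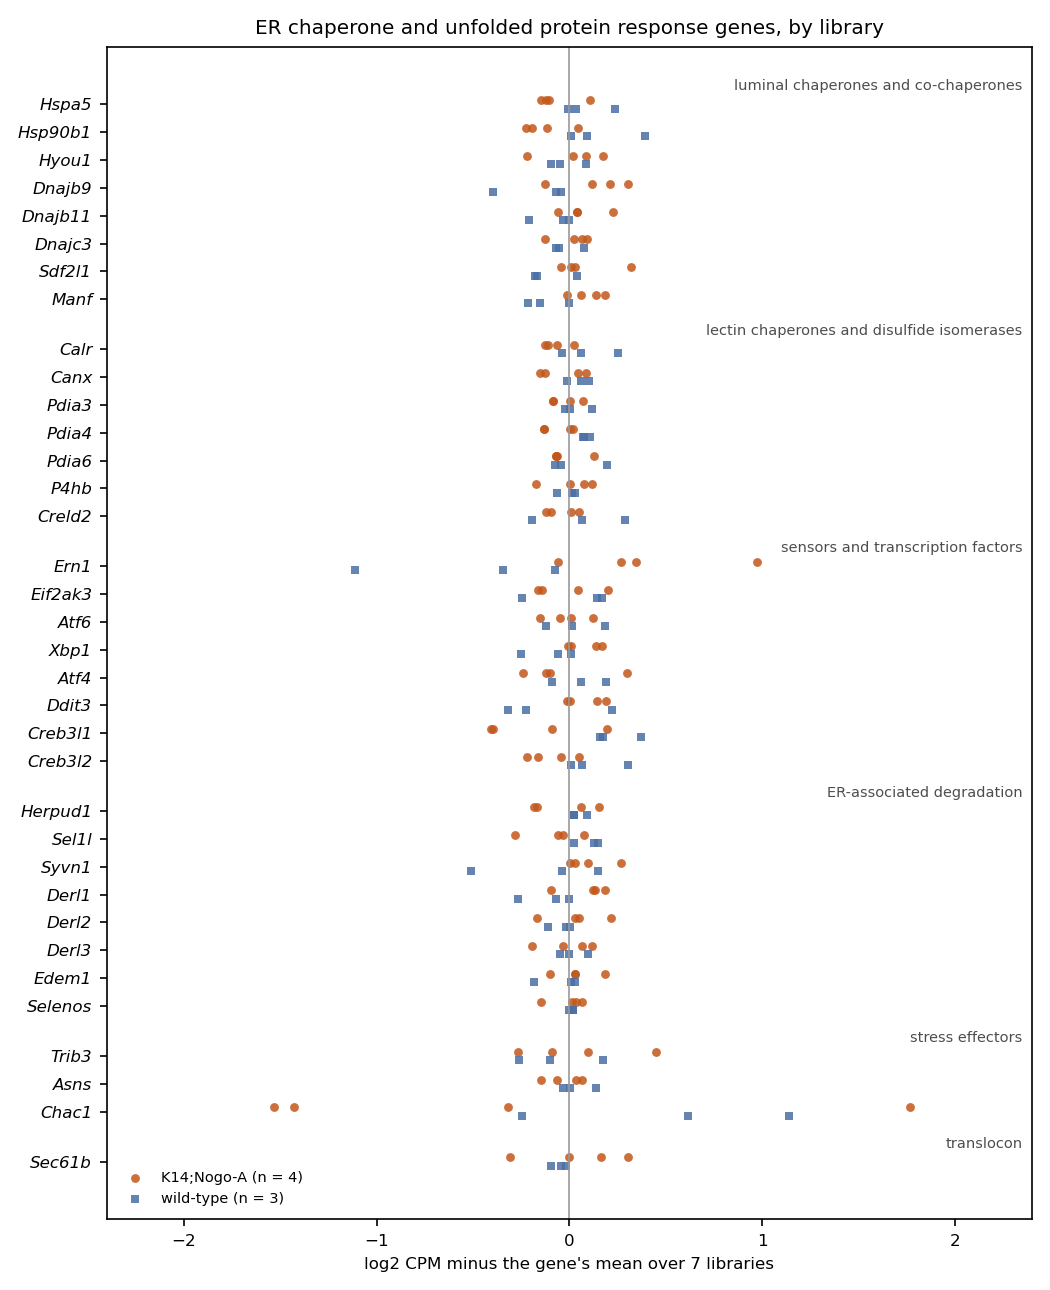
The 35 genes by role, with each library's log2 CPM minus the mean of the gene over the 7 libraries on the horizontal axis; orange circles are the 4 K14;Nogo-A pups and blue squares the 3 wild-type pups. Most genes stay close to their mean in every library, and the widest spreads are those of Chac1 (1.46 to 14.4 CPM) and Ern1 (14.2 to 60.3 CPM).

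Of the luminal chaperones, Hspa5 and Hsp90b1 were among the most abundant members. Hspa5 (ENSMUSG00000026864, chromosome 2 of GRCm38, 34771970 to 34777547), the gene of the Hsp70 chaperone BiP, was at 1018, 1008, 1182 and 990 CPM in K14;Nogo-A, against 1092, 1290 and 1124 CPM in wild-type. K14;Nogo-A replicates 1, 2 and 10 were below all wild-type libraries and replicate 7 was within their range, and the log2 fold change was -0.16 (SE, the standard error of the fit, 0.11, adjusted p = 0.57). Hsp90b1 (ENSMUSG00000020048, chromosome 10, 86690209 to 86705509), the gene of the Hsp90 chaperone GRP94 and the one with 2 stress elements above, was at 895, 847, 1000 and 831 CPM in K14;Nogo-A, against 1032, 1272 and 977 CPM in wild-type. Its log2 fold change was -0.29 (SE 0.12, adjusted p = 0.33), and without wild-type replicate 8 it was -0.17 (adjusted p = 0.83).

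Of the co-chaperones and other factors of the lumen, Dnajb9 and Manf were higher at P of 0.05 or less. Dnajb9 (ENSMUSG00000014905, chromosome 12, 44205559 to 44210326) encodes ERdj4, a BiP partner that holds IRE1 inactive, and is a known target of XBP1. It was at 26.4, 35.6, 31.3 and 33.4 CPM in K14;Nogo-A, against 27.5, 21.9 and 28.0 CPM in wild-type. Replicate 1 of K14;Nogo-A was within the wild-type range and the other 3 were above it, with a log2 fold change of 0.30 (SE 0.13, adjusted p = 0.37) that was 0.19 (adjusted p = 0.82) without wild-type replicate 8. Manf, a small ER-resident factor released from stressed cells, was at 183, 192, 210 and 203 CPM in K14;Nogo-A, against 159, 166 and 184 CPM in wild-type, which overlap by 1 library on each side. Its log2 fold change was 0.22 (SE 0.09, adjusted p = 0.36), and 0.17 (adjusted p = 0.68) without wild-type replicate 3. The other 4 members of the lumen, Hyou1, Dnajb11, Dnajc3 and Sdf2l1, had log2 fold changes of 0.03 to 0.18 with adjusted p of 0.52 or more.

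The lectin chaperones and isomerases held the highest levels. Per kilobase of exonic sequence P4hb, the protein disulfide isomerase, stood first of the 35 genes at 571 CPM, followed by Calr (calreticulin) at 490, Pdia3 (which works with the lectin chaperones) at 361, Hspa5 at 260 and Hsp90b1 at 243. No member of the 7 passed P of 0.05 between the genotypes, and their log2 fold changes lay between -0.16 and 0.02. Calr was at 1288, 1344, 1428 and 1303 CPM in K14;Nogo-A, against 1464, 1674 and 1369 CPM in wild-type, and its log2 fold change was -0.16 (SE 0.11, adjusted p = 0.53). P4hb was at 1447, 1634, 1769 and 1721 CPM in K14;Nogo-A, against 1668, 1559 and 1647 CPM in wild-type, with wild-type inside the range of K14;Nogo-A. Pdia4, a further disulfide isomerase, was at 272, 302, 299 and 272 CPM in K14;Nogo-A, against 314, 321 and 313 CPM in wild-type. These ranges do not overlap, yet the log2 fold change was small, -0.14 (SE 0.09, adjusted p = 0.51). Canx, Pdia3, Pdia6 and Creld2 were between -0.11 and -0.05.

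Among the sensors and factors, Ern1 was the member past the study's thresholds. Ern1 (ENSMUSG00000020715, chromosome 11, 106394650 to 106487852) encodes IRE1 alpha, the kinase and RNase that splices the mRNA of Xbp1. It was at 29.5, 60.3, 39.1 and 37.0 CPM in K14;Nogo-A, against 24.2, 14.2 and 29.2 CPM in wild-type. The ranges did not overlap, but K14;Nogo-A replicate 1 and wild-type replicate 9 were almost level. Ern1 averaged 41.5 ± 13.2 CPM in K14;Nogo-A (SD, n = 4) and 22.5 ± 7.61 CPM in wild-type (SD, n = 3), and its log2 fold change of 0.89 (SE 0.30, adjusted p = 0.29) was the largest of the 35 genes. The exact permutation test over the 7 libraries gave p = 0.057 (two-sided, where the smallest p possible is 0.0286). With each library left out in turn the log2 fold change stayed between 0.64 and 1.12 and past the study's thresholds. With the log2 Amelx share as a covariate it was 0.13 (adjusted p = 0.92), and with the mean level of mesenchyme markers as a covariate the sign turned, to -1.04 (adjusted p = 0.70). The direction also turned in that fit for Dnajb9 (-0.41, adjusted p = 0.81), Manf (-0.02, adjusted p = 0.99) and Creb3l1 (0.61, adjusted p = 0.70).

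Eif2ak3, the gene of PERK, was at 51.6, 57.5, 45.4 and 44.7 CPM in K14;Nogo-A, against 56.3, 42.2 and 55.2 CPM in wild-type, and Atf6 was at 73.3, 79.3, 65.5 and 70.5 CPM in K14;Nogo-A, against 73.6, 67.0 and 82.9 CPM in wild-type. In both the genotypes overlapped, with log2 fold changes of -0.04 (SE 0.13) and -0.05 (SE 0.10). Of the exonic bases of Eif2ak3, 8.05% are shared with a gene on the opposite strand, and reads there cannot be assigned with certainty. The same holds for 10.3% of the exonic bases of Hsp90b1, shared with the pseudogene 1810014B01Rik, which was not among the genes counted. It also holds for 3.97% of the exonic bases of Ddit3, shared with Mars, and 6.13%, shared with a second Ddit3 entry on the same strand. Of the exonic bases of Manf, 4.14% are shared with Dcaf1 and 4.71% with 4930524O07Rik. The second Ddit3 entry and 4930524O07Rik were not among the genes counted.

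Of the factors below the sensors, Xbp1 was at 264, 258, 234 and 236 CPM in K14;Nogo-A, against 236, 197 and 225 CPM in wild-type, a log2 fold change of 0.18 (SE 0.10, adjusted p = 0.46). Gene counts do not separate its spliced and unspliced mRNA. Atf4, the factor translated when PERK is active, was at 183, 126, 137 and 139 CPM in K14;Nogo-A, against 155, 170 and 140 CPM in wild-type. K14;Nogo-A replicate 1 was the highest of all 7 libraries and the other 3 of that genotype were the lowest, and the log2 fold change was -0.09 (SE 0.13, adjusted p = 0.81). Ddit3, the gene of CHOP, was at 9.79, 8.88, 10.1 and 8.77 CPM in K14;Nogo-A, against 7.56, 7.09 and 10.3 CPM in wild-type, with a log2 fold change of 0.19 (SE 0.16, adjusted p = 0.66).

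Creb3l1 (ENSMUSG00000027230, chromosome 2, 91982328 to 92024502) encodes OASIS, an ER-bound factor that drives collagen production in bone-forming cells. It was at 199, 131, 132 and 163 CPM in K14;Nogo-A, against 225, 196 and 194 CPM in wild-type. K14;Nogo-A replicates 2, 7 and 10 were below wild-type and replicate 1 was within its range, so the log2 fold change of -0.39 (SE 0.14, adjusted p = 0.29) was -0.53 (adjusted p = 0.046) without replicate 1. None of Dnajb9, Manf, Hsp90b1 and Creb3l1 kept P of 0.05 or less with every library left out. Among the K14;Nogo-A libraries, Dnajb9 missed it when replicate 2, 7 or 10 was dropped, Manf when 7 or 10 was, Hsp90b1 when 2 or 10 was, and Creb3l1 when 2 or 7 was. Among the wild-type libraries, dropping replicate 8 had this outcome for Dnajb9, Manf and Hsp90b1, and dropping replicate 3 for Manf and Creb3l1. Creb3l2, a relative of Creb3l1, was at a log2 fold change of -0.22 (SE 0.11, adjusted p = 0.40).

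No member of ER-associated degradation passed P of 0.05 between the genotypes. Derl1, a channel protein through which misfolded chains leave the ER, was at 117, 137, 142 and 136 CPM in K14;Nogo-A, against 119, 104 and 125 CPM in wild-type, a log2 fold change of 0.20 (SE 0.10, adjusted p = 0.43). Again replicate 1 was the K14;Nogo-A library within the wild-type range. Syvn1 encodes Hrd1, the ubiquitin ligase of this pathway, and Sel1l its partner in the ER membrane. Sel1l was at 106, 136, 124 and 126 CPM in K14;Nogo-A, against 141, 131 and 143 CPM in wild-type, a log2 fold change of -0.17 (SE 0.10, adjusted p = 0.48). Syvn1 was at 95.1, 107, 90.8 and 89.2 CPM in K14;Nogo-A, against 98.7, 62.5 and 86.6 CPM in wild-type, where replicate 8 was far below all other libraries. Its log2 fold change was 0.21 (SE 0.14, adjusted p = 0.55), but 0.05 without wild-type replicate 8 and 0.36 without wild-type replicate 3, where it passed P of 0.05. The values of Hspa5 and Calr, -0.16 each, were both -0.08 without wild-type replicate 8. The remaining 5, Herpud1, Derl2, Derl3, Edem1 and Selenos, were between -0.07 and 0.08.

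The stress effectors gave no call. Chac1 (ENSMUSG00000027313, chromosome 2, 119351229 to 119354381), which degrades glutathione and is induced by ATF4, had the widest spread of the 35 genes, at 14.4, 1.46, 1.57 and 3.39 CPM in K14;Nogo-A, against 9.30, 3.56 and 6.48 CPM in wild-type. Replicate 1 was the highest library of all and replicates 2, 7 and 10 were the 3 lowest, so K14;Nogo-A lay on both sides of wild-type. Its log2 fold change was -0.33 (SE 0.91, adjusted p = 0.91), and -1.58 (adjusted p = 0.099) without replicate 1, which put it past the study's thresholds. Asns, the asparagine synthetase and an ATF4 target, was at 97.9, 89.4, 84.4 and 95.7 CPM in K14;Nogo-A, against 93.8, 103 and 91.3 CPM in wild-type. Trib3, a pseudokinase that dampens the response, was the lowest member, with 12 to 32 counts per library. It was at 0.739, 0.575, 0.942 and 0.648 CPM in K14;Nogo-A, against 0.644, 0.779 and 0.576 CPM in wild-type, too few counts to show a moderate difference. Sec61b, a subunit of the translocon, was at 131, 85.9, 119 and 106 CPM in K14;Nogo-A, against 99.6, 105 and 103 CPM in wild-type, with a log2 fold change of 0.11 (SE 0.13).

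**Figure D3:**
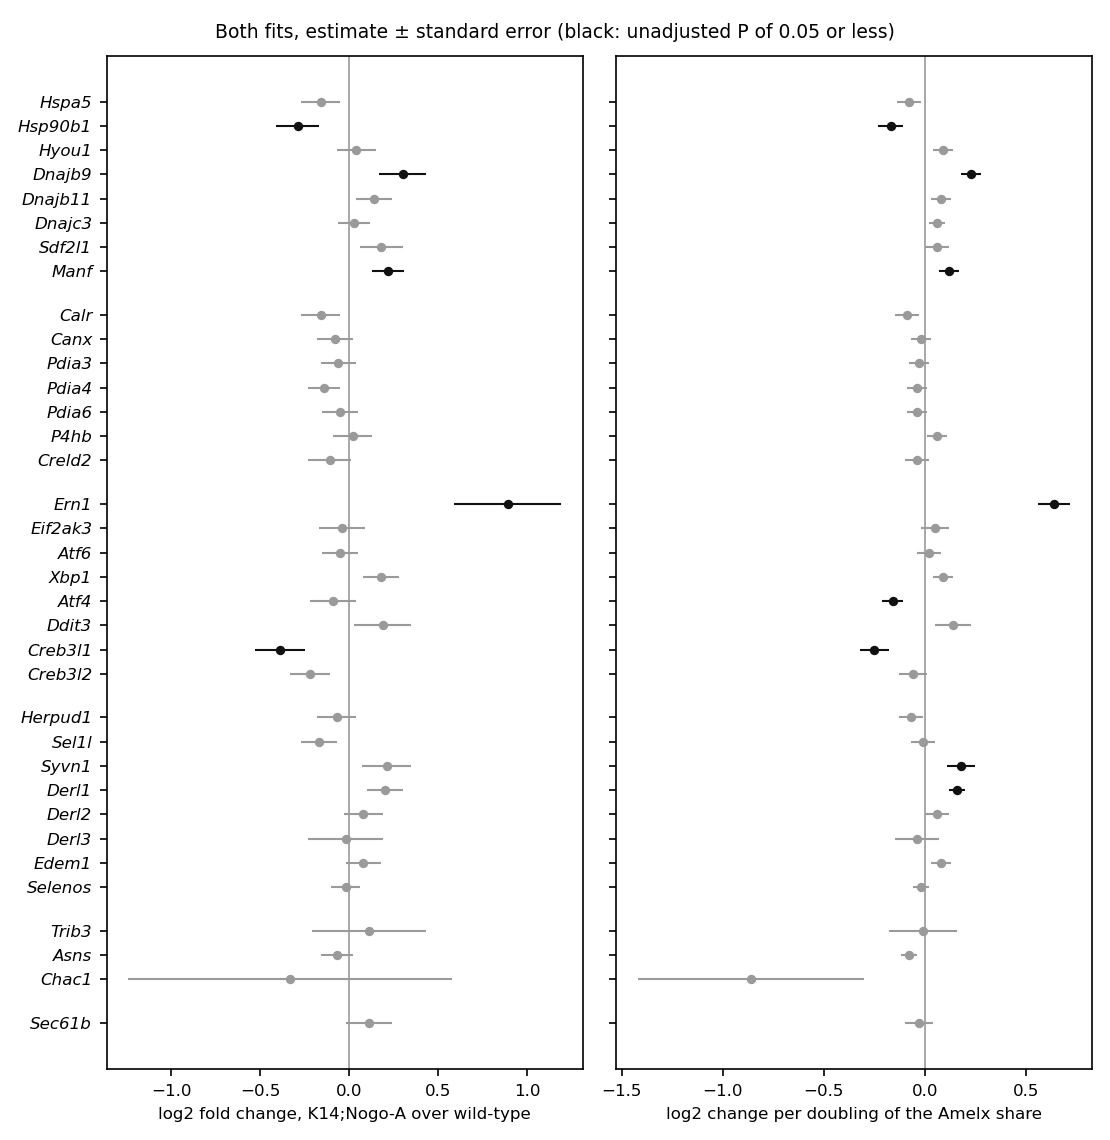
Estimates and standard errors of the 35 genes, in the order of the plot by library: log2 fold change of K14;Nogo-A over wild-type on the left, and log2 change per doubling of the Amelx share on the right, with black for an unadjusted P of 0.05 or less. Ern1 stands apart in both panels, at 0.89 and 0.64, and Chac1 has the widest error bars.

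The second comparison was with the Amelx share, as a measure of how much of a library's RNA came from secreting ameloblasts. In bulk RNA a larger share of these cells and more of the transcript per cell cannot be told apart. A slope is the change in log2 expression for each doubling of the share over the 7 libraries, without regard to genotype. The median slope of the 35 genes was -0.01, the same as over all genes tested, with 16 positive and 19 negative. At P of 0.05 or less, 5 slopes were positive (Ern1, Dnajb9, Derl1, Syvn1 and Manf) and 3 negative (Creb3l1, Atf4 and Hsp90b1), beside 9.61% and 8.94% of all genes. At an adjusted p under 0.05, 3 members rose with the share, Ern1, Dnajb9 and Derl1, and none fell, beside 2.87% and 0.96% of all genes. The most abundant chaperones were not among them, and Hspa5 had a slope of -0.08 (SE 0.06, adjusted p = 0.48).

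Ern1 rose by 0.64 (SE 0.08, adjusted p = 0.00091) per doubling of the Amelx share, the largest positive slope of the 35 genes. The lowest level was in wild-type replicate 8, which had the lowest Amelx share, and the highest in K14;Nogo-A replicate 2, which had the highest share. Over the 7 libraries Pearson's r of log2 CPM with log2 share was 0.95 (exact permutation p = 0.00040, adjusted p = 0.071) and Spearman's rho 0.96 (exact permutation p = 0.0028, adjusted p = 0.14), where r and rho were computed for every gene tested. Without K14;Nogo-A replicate 2 and wild-type replicate 8, the libraries farthest from the median share, r was 0.95 over 5 libraries. With each library left out in turn the adjusted p of the slope was between 0.00098 and 0.016.

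Dnajb9 rose by 0.23 (SE 0.05, adjusted p = 0.028) and Derl1 by 0.16 (SE 0.04, adjusted p = 0.047) per doubling. Their r values were 0.96 and 0.99 (exact permutation p = 0.0024 and 0.00079, adjusted p = 0.10 and 0.083), with rho of 0.93 for each (exact permutation p = 0.0067, adjusted p = 0.21), and 0.91 and 0.99 without the 2 farthest libraries. The call of Dnajb9 was lost without K14;Nogo-A replicate 2 (adjusted p = 0.13) or 10 (adjusted p = 0.076), and without wild-type replicate 3 (adjusted p = 0.056) or 8 (adjusted p = 0.27). Derl1 kept its call only without K14;Nogo-A replicate 1 (adjusted p = 0.035), and the other 6 omissions gave 0.054 to 0.34. With all libraries it lost the call under upper-quartile factors (adjusted p = 0.057) and with no filter on low counts (adjusted p = 0.065).

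Atf4 had a slope of -0.16 (SE 0.05, adjusted p = 0.13) and Creb3l1 one of -0.25 (SE 0.07, adjusted p = 0.074). For Atf4 r was -0.80 (exact permutation p = 0.030, adjusted p = 0.26) and rho -0.89 (exact permutation p = 0.012, adjusted p = 0.24), and r was -0.71 without the 2 farthest libraries. For Creb3l1 r was -0.79 (exact permutation p = 0.035, adjusted p = 0.27) and rho -0.89 (exact permutation p = 0.012, adjusted p = 0.24), and r was -0.96 without them. Leaving out wild-type replicate 8 alone gave Creb3l1 a slope of -0.47 (adjusted p = 0.0038) and Chac1 one of -1.93 (adjusted p = 0.00036), against -0.86 (adjusted p = 0.48) for Chac1 with all libraries.

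As for Creb3l1, the slopes of Hsp90b1 and Syvn1 moved by more than 1.5 times with 1 library left out. Without wild-type replicate 8, the library with the lowest share, the slope of Hsp90b1 was -0.08 (adjusted p = 0.87) in place of -0.17 (adjusted p = 0.14), and that of Syvn1 was 0.02 (adjusted p = 0.97) in place of 0.18 (adjusted p = 0.16). The slope of Syvn1 also missed P of 0.05 without K14;Nogo-A replicate 2 (0.16, adjusted p = 0.38). Promoters were found for 5 of these 8 genes, and those of Hsp90b1 and Syvn1 held the stress element. Over the 9 genes with the element the median slope was -0.04 and the median log2 fold change -0.08, with 7 of 9 negative in each. Over the 21 genes whose promoter lacked it the medians were -0.01 and 0.02, with 11 slopes and 10 log2 fold changes negative. The part of the element in these values was not tested. Manf had a slope of 0.12 (SE 0.05, adjusted p = 0.18), which missed P of 0.05 without K14;Nogo-A replicate 7 (0.11, adjusted p = 0.34) and without replicate 10 (0.12, adjusted p = 0.33).

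**Figure D4:**
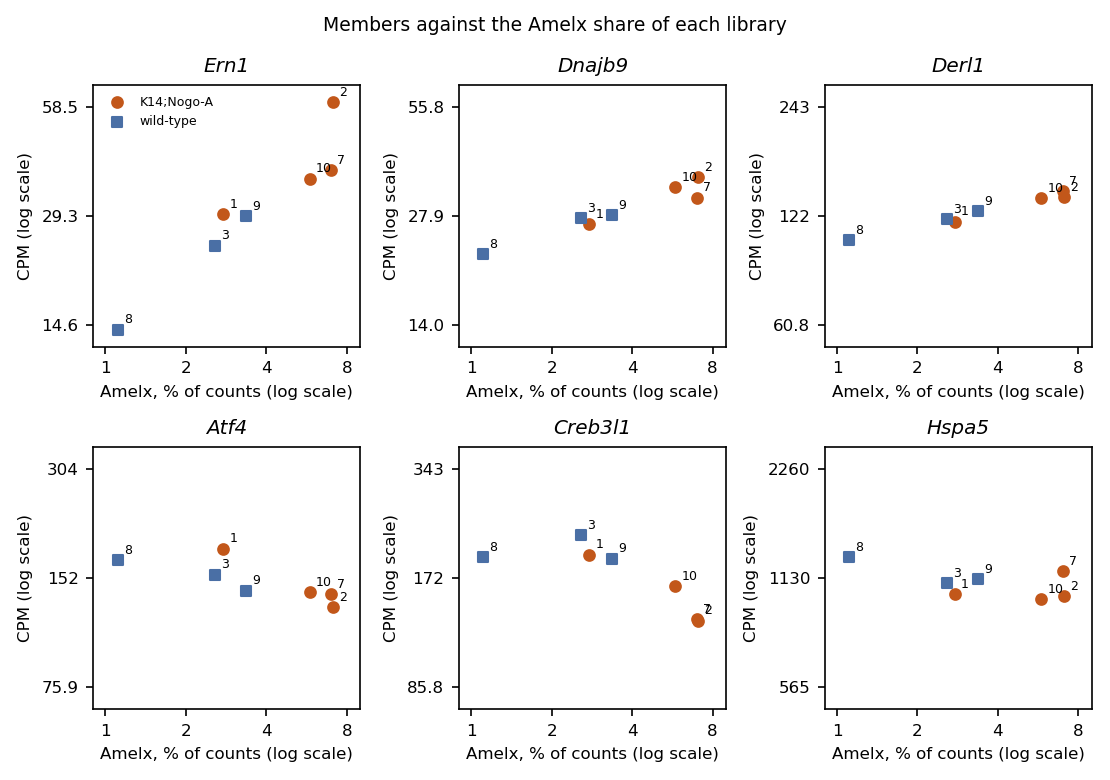
CPM of 6 members (log scale, each panel spanning the same fold range) against the Amelx share of counts (log scale), 1 point per pup with its replicate number; orange circles are K14;Nogo-A and blue squares wild-type. K14;Nogo-A replicates 2, 7 and 10 are the highest libraries for Ern1, Dnajb9 and Derl1 and the lowest for Atf4 and Creb3l1, while Hspa5 shows little order.

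Because the highest shares were all in K14;Nogo-A, share and genotype were also fitted together, and within a genotype the 4 and 3 libraries were too few for a correlation. In that fit the slope of Ern1 was 0.59 (SE 0.12, adjusted p = 0.067) and its log2 fold change between the genotypes 0.13 (SE 0.21). Dnajb9 and Derl1 had slopes of 0.25 (adjusted p = 0.25) and 0.17 (adjusted p = 0.28), and a log2 fold change of -0.03 each. The slope of Atf4 was -0.25 (SE 0.07, adjusted p = 0.17). Hyou1, a large Hsp70 relative that releases nucleotide from BiP, had a slope of 0.17 (adjusted p = 0.35) and Sel1l one of 0.14 (adjusted p = 0.40) in this fit. In all, 5 members had a positive slope at P of 0.05 or less and 1 a negative one, beside 7.52% and 4.66% of all genes, and none passed an adjusted p of 0.05, beside 0.419% and 0.0541%.

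Other measures of the libraries moved with the Amelx share too. Of 10 epithelial markers 8 had a positive slope at P of 0.05 or less, beside 9.61% of all genes. Between the genotypes 2 of them were higher in K14;Nogo-A at that P, beside 6.25% of all genes. Their summed level was 9089 to 10889 CPM in K14;Nogo-A, against 6743 to 10837 CPM in wild-type. Of 12 mesenchyme markers 5 had a negative slope and 7 were lower in K14;Nogo-A at that P, beside 8.94% and 6.66% of all genes. The mesenchyme markers summed to 10639 to 32327 CPM in K14;Nogo-A, against 25448 to 40219 CPM in wild-type. Their mean log2 levels did not overlap between the genotypes, at 7.71 to 8.07 in K14;Nogo-A, against 8.43 to 8.57 in wild-type. Of 6 endothelial markers 5 were lower in K14;Nogo-A at that P, beside 6.66% of all genes, and 0 had a slope at that P. The 7 ameloblast markers summed to 31399 to 103577 CPM in K14;Nogo-A, against 12759 to 40506 CPM in wild-type, but most of that sum is Amelx itself, so it is no separate measure. With their mean log2 CPM added to the fit, the Y-linked genes left the slope of Ern1 at 0.74 (adjusted p = 0.058), that of Dnajb9 at 0.24 (adjusted p = 0.30) and that of Atf4 at -0.04 (adjusted p = 0.87). In the same fit Derl1 was at 0.14 (adjusted p = 0.41), Manf at 0.08 (adjusted p = 0.72) and Creb3l1 at -0.17 (adjusted p = 0.55). Syvn1 was at 0.36 (adjusted p = 0.16) and Hsp90b1 at -0.24 (adjusted p = 0.36). Atf4, Derl1, Manf and Creb3l1 missed P of 0.05 there. The part of the other cell types in the members' values was not tested.

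Other genes of the secretory pathway were read from lists of the same making. Of 24 genes for protein entry into the ER, 4 had higher levels and 1 had a lower level at P of 0.05 or less, which also holds for the counts of the lists that follow, beside 6.25% and 6.66% of all genes. Ssr4, a subunit of the complex beside the translocon, was at 168 ± 5.01 CPM in K14;Nogo-A (SD, n = 4) and 119 ± 31.2 CPM in wild-type (SD, n = 3), with a log2 fold change of 0.50 (SE 0.14, adjusted p = 0.23) and a slope of 0.30 (adjusted p = 0.040). Sec11c, a signal peptidase subunit, had a log2 fold change of 0.45 (adjusted p = 0.22), and Tram2, linked to collagen synthesis, one of -0.56 (adjusted p = 0.25). Of 12 N-glycosylation genes none passed P of 0.05, and the 3 with the smallest P, Magt1, Ddost and Dad1, had log2 fold changes of -0.15, 0.19 and 0.12.

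Of 39 other folding factors 2 were higher and 3 lower, among them Sdf2 at 0.25, Uggt2, a glucosyltransferase that recognises unfolded glycoproteins, at -0.46, and the calcium-binding Rcn1 at -0.38. Rcn1 also fell with the Amelx share, with a slope of -0.23 (adjusted p = 0.033), while Sdf4 had a slope of 0.19 (adjusted p = 0.040). Of 23 other degradation genes 1 was higher and 1 lower, Edem2 at 0.27 and Ube2j1 at -0.22, with Ubxn4 next at -0.12. Edem2, which trims mannose from misfolded glycoproteins, and Os9, a lectin that delivers them to the Hrd1 ligase, rose with the share, with slopes of 0.21 (adjusted p = 0.025) and 0.29 (adjusted p = 0.018).

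Of 38 further targets of ATF4 and CHOP 1 was higher and 4 lower. Atf5, a factor of the same stress pathway, was at 98.3 ± 6.86 CPM in K14;Nogo-A (SD, n = 4) and 70.1 ± 15.4 CPM in wild-type (SD, n = 3), without overlap, with a log2 fold change of 0.49 (SE 0.13, adjusted p = 0.22) and a slope of 0.32 (adjusted p = 0.0072). Aldh1l2 and Jdp2 had log2 fold changes of -0.56 and -0.45, and Psat1, a serine synthesis enzyme, fell with the share, with a slope of -0.22 (adjusted p = 0.028). Of 19 other signalling genes 1 was higher, Creb3 at 0.25, and 1 lower, Ppp1r15b at -0.20, with Bloc1s1, whose mRNA IRE1 cleaves, at 0.26 (adjusted p = 0.39).

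Of 30 genes of transport to the Golgi 4 were higher and 2 lower. Sec23a and Sec24d, coat proteins of the vesicles that leave the ER and needed for collagen export, had log2 fold changes of -0.49 and -0.31, and Sar1b, the GTPase that starts the coat, one of 0.31. Surf4, a cargo receptor of the early secretory pathway, was at 1072 ± 158 CPM in K14;Nogo-A (SD, n = 4) and 831 ± 140 CPM in wild-type (SD, n = 3), and rose by 0.30 per doubling of the share (adjusted p = 0.0053). Ergic3 rose by 0.31 (adjusted p = 0.0041), while Sec23a had a slope of -0.29 (adjusted p = 0.033). Of 10 collagen chaperones and modifying enzymes none was higher and 7 were lower, with a median of -0.39. P4ha1, Plod1 and P3h1 were at -0.50, -0.40 and -0.39. With the Amelx share, 6 of the 10 had a negative slope and 3 a positive one at P of 0.05 or less, beside 8.94% and 9.61% of all genes. P4ha1 and Crtap fell with the share, with slopes of -0.31 (adjusted p = 0.032) and -0.30 (adjusted p = 0.042). The mesenchyme markers above were also lower in K14;Nogo-A, and their part in these values was not tested. At an adjusted p under 0.05, edgeR called no gene of these 8 lists between the genotypes.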

How the data were processed

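The authors deposited whole counts for each Ensembl gene in 7 libraries: poly(A) RNA was sequenced single-end, aligned with STAR 2.7.1 to GRCm38 (per the submitters' processing notes) and counted with featureCounts. The sources used here do not give the strand setting, so reads of overlapping genes may be shared. The 36 IDs without a GENCODE M21 symbol held 0.0348% of counts in all.

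A gene was kept where 50% or more of the pups of one genotype had 10 counts or more, and tested with edgeR 4.0.16 (R 4.3.3; TMM, robust quasi-likelihood), for K14;Nogo-A against wild-type and for the log2 Amelx share, with Benjamini-Hochberg adjustment over all 14791 genes. The study's fold threshold of 0.5 was read as log2. The common biological coefficient of variation was 15.2%. No 2 libraries were alike within sampling noise (chi-square per degree of freedom at least 16.1). Permutation tests were exact and two-sided, over 35 splits or 5040 orders. Alternatives included DESeq2 1.42.0 and limma 3.58.1. The tests were tried on simulated counts.

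The members and lists were chosen with earlier results of these data known. Named with values in each library are Hspa5, the sensors, Xbp1, Atf4, Ddit3, members past the study's thresholds and the 2 with the smallest P per role in either fit; of wider lists, up to 3 genes by P in the genotype comparison. Genes of those lists named for a slope were chosen after their values were seen. Longer promoter stretches within annotated exons were left out, a filter that was not applied to the single sites printed.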

Additional observations from a re-analysis of the deposited data

Results flagged for a closer look

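In the 36 sets of 4 K14;Nogo-A libraries examined (the 35 genes and Amelx), 3 had a library far from the other 3, where chance gives about 1 in 20. Hspa5 was at 1182 CPM in replicate 7, against 990 to 1018 CPM in the other 3, and Pdia6 was at 574 CPM in the same library, against 500 to 503 CPM. Chac1 was at 14.4 CPM in replicate 1, against 1.46 to 3.39 CPM in the other 3. Replicate 1 is the K14;Nogo-A library with the lowest Amelx share and the one with high Y-linked genes. The part of either in the level of Chac1 was not tested.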

How the results depend on the processing

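The count of members past the study's thresholds as higher was 1 with every normalization, filter and other test tried (RLE and upper-quartile factors, likelihood-ratio test, DESeq2, limma-voom, 2 filters, library sizes without the enamel genes) and with each library left out. It became 3 with P of 0.05 or less alone, 0 at an adjusted p under 0.05 in edgeR and limma-voom (1 in DESeq2, Ern1), and 0 with the Amelx share as a covariate. The count as lower was 0 to 2 with a library left out (2 without K14;Nogo-A replicate 1, Creb3l1 and Chac1) and 2 with P alone. With the mesenchyme markers as a covariate, 3 were higher and 2 lower and the median log2 fold change was -0.16. There Ern1 was at -1.04, Hyou1 at -0.65, Atf4 at 0.81 and Chac1 at 4.24. The marker means do not overlap between the genotypes, so this fit extrapolates. The median was -0.04 to 0.03 with a library left out (0.03 without wild-type replicate 9).

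With the Amelx share, 4 to 6 positive and 3 to 4 negative members passed P with a library left out. The negative count was 1 with genotype as a term, where the median slope was 0.03 and Sel1l turned to 0.14, and 1 with the Y-linked genes. At an adjusted p under 0.05 the counts were 3 and 0, but 2 and 0 with upper-quartile factors or no filter, which lose Derl1, 3 and 1 with the likelihood-ratio test, 1 and 1 with the Ambn share, 0 and 0 with genotype or the Y-linked genes as a term, and 1 to 3 and 0 to 2 with a library left out. Ern1 kept its adjusted call with the Ambn share in place of Amelx (0.027) and lost it with genotype as a term (0.067) or the Y-linked genes (0.058). Causes were not tested.

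The paper describes the controls as littermates, but the labels used here give no litter, so no paired analysis was possible. With 4 and 3 pups, the fit has little power for small differences, and a P that misses the threshold does not show equality. Amelx share, sex-linked expression, mesenchyme content and the level of endothelial markers were not balanced between the genotypes. The 3 libraries with high Y-linked genes were also those with the lowest Amelx shares. Gene counts do not show splicing of Xbp1 or protein.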
